A study of Mus musculus with 16 samples.

Results

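The small leucine-rich proteoglycans are secreted proteins with a core of leucine-rich repeats that bind collagen fibrils. The family was taken as 10 genes, chosen by symbol: Dcn, Bgn, Fmod, Lum, Kera, Prelp, Omd, Aspn, Ogn and Chad. All 10 were found among the 25719 genes counted, and all 10 passed the expression filter. Their RNA was measured in 16 libraries from tail tendon fascicles of mice, which are strands of collagen with their cells. Of these, 8 libraries are labelled wild type. The other 8 are labelled knockout and come, per the series' design text, from ScxCre;Vhlf/f mice, in which Cre driven by the tendon gene Scx deletes the floxed Vhl gene in Scx-lineage cells. Vhl encodes the substrate-recognition part of the ubiquitin ligase that marks hypoxia-inducible factors for degradation. Age, sex and the alleles of the wild type mice are not given in the labels, and neither is whether each library came from a separate mouse, so p-values measure the spread between these libraries. Wild type libraries are called controls here (WT1 to WT8) and knockout libraries mutants (KO1 to KO8).

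Small leucine-rich proteoglycans sit on the surface of collagen fibrils, where they limit the sideways fusion of fibrils and guide where cross-links form. They are grouped by structure into classes. In class I, Dcn (decorin) and Bgn (biglycan) carry chondroitin or dermatan sulphate chains, whereas Aspn (asporin) has a stretch of aspartate and lacks such a chain. Class II holds Fmod (fibromodulin), Lum (lumican), Kera (keratocan), Prelp and Omd (osteomodulin), several of which carry keratan sulphate. Ogn (mimecan) belongs to class III and Chad (chondroadherin) to class IV. In tendon, decorin and fibromodulin are the best known members, and biglycan and asporin are known from growing or damaged matrix and from cartilage and bone.

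Total counts per library lay between 10488355 and 18753254 in mutants and between 10792900 and 16379401 in controls. Levels are given in CPM, the count divided by a library size that was scaled by the trimmed mean of M-values (TMM), so they set libraries but not genes of different length side by side. Vhl was measured at 9.35 ± 1.25 CPM in mutants and 20.5 ± 3.69 CPM in controls (SD, n = 8), without overlap. The libraries are whole tissue, so fewer cells of a type and less RNA per cell cannot be told apart. Tenocyte markers were present in every library, and 7 of 12 passed the test as lower and 1 as higher in mutants. That marker list includes Fmod and Kera themselves. WT3 stood apart from the other controls by low type I collagen (Col1a1 and Col1a2), at 12.0% of its counts against 19.7% to 29.2%. Summed skeletal muscle markers (14 genes) ranged from 388 to 23306 CPM in mutants and from 96.6 to 10357 CPM in controls, and were highest in KO6, KO7, KO8 and WT5. Of these 14 genes, 1 passed the test, as higher, and Pvalb was the gene at 0 in some library. Summed endothelial markers (11 genes, 8 of them tested) ranged from 58.2 to 551 CPM in mutants and from 41.1 to 61.6 CPM in controls. Of the endothelial genes 6 were higher and none lower, and Tie1, Emcn, Cldn5 and Flt1 were at 0 in some library. Of 9 tested mural markers 6 were higher and 1 lower, and their sum ranged from 340 to 1643 CPM in mutants and from 358 to 476 CPM in controls. Adipocyte markers summed to 0.680 to 57.1 CPM in mutants and 0.290 to 1.73 CPM in controls, and all 6 were at 0 in some library. Sums of Schwann cell markers (332 to 589 against 464 to 548 CPM), macrophage markers (1259 to 1833 against 1123 to 1611 CPM) and keratinocyte markers (18.2 to 25.5 against 23.1 to 51.6 CPM) overlapped. Erythroid markers (77.8 to 562 against 15.1 to 50.7 CPM) and tendon sheath markers (2914 to 4216 against 5608 to 7161 CPM) did not overlap between mutant and control, and chondrocyte markers (100.2 to 251 against 44.6 to 154 CPM) did. Of 8 tested tendon sheath markers 2 were higher and 2 lower, so the sum does not stand for the whole list. Of 6 tested chondrocyte markers 3 were higher and 1 lower, and of 5 erythroid markers 5 were higher. Of 7 tested Schwann cell markers 2 were higher and 1 lower, and of 9 macrophage markers 3 were higher and none lower. Of 3 tested keratinocyte markers 1 was higher and 2 were lower. Further fits used the muscle or endothelial score as a covariate, or left out the 4 muscle-rich libraries. Where such a fit changed the call of a member or the median of a list, it is given beside the result. For other named genes these fits are not given, so their calls are those of the main fit alone. Beyond these fits the part of other cells was not tested. Endothelial markers were themselves higher in mutants, so a fit with the endothelial score cannot fully tell that score and genotype apart.

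Members of the family differed between the genotypes in both directions. Bgn and Aspn rose in mutants, and Fmod, Kera, Chad, Lum and Dcn fell (edgeR's quasi-likelihood test, Benjamini-Hochberg adjusted over all 14803 tested genes, adjusted p under 0.05). Prelp, Omd and Ogn did not pass. Thus 7 of the 10 members passed, 2 higher and 5 lower, beside 48.3% of all tested genes, with 25.6% higher and 22.7% lower. With the endothelial covariate 2 members were higher and 3 lower, beside 30.2% of all genes, and with the muscle covariate 2 and 4, beside 44.0%. Without the 4 muscle-rich libraries the counts were also 2 and 4, beside 40.9%. In 5 members the 8 mutants lay wholly outside the range of the 8 controls: Bgn and Aspn on the higher side, and Fmod, Kera and Chad on the lower. Of all tested genes, 19.4% did not overlap, 10.8% on the higher and 8.61% on the lower side. The median log2 fold change was -0.47 over the members and 0.02 over all tested genes. With scaling to total counts and no TMM factor, 3 members were higher (Bgn, Aspn and Ogn) and 3 lower (Fmod, Kera and Chad), beside 65.4% of all genes. On that scale the median of all genes moved up by 0.30, 85.4% rather than 53.0% of called genes were higher, and Prelp changed sign to 0.12 without passing the test.

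**Figure D1:**
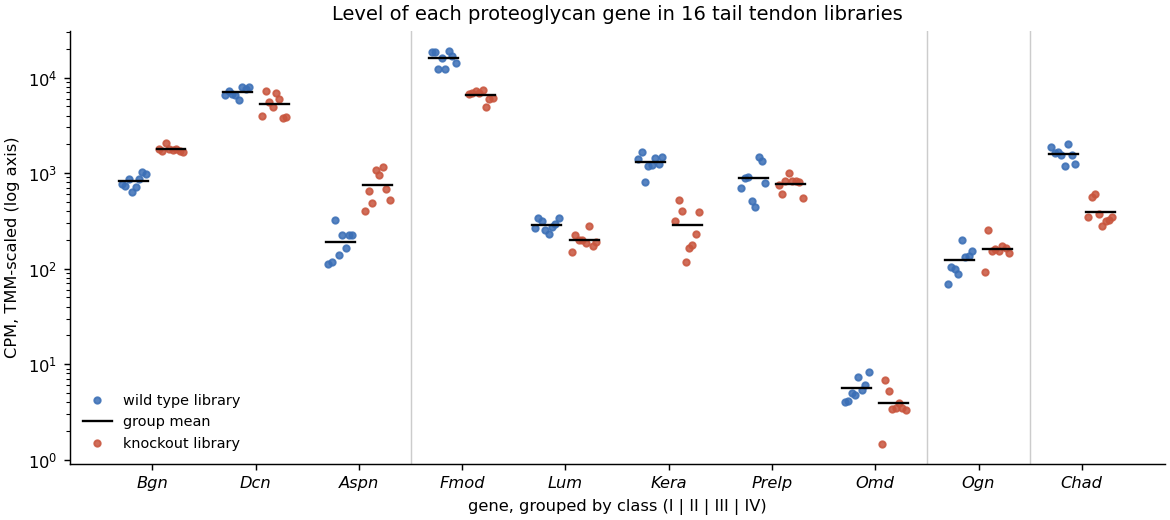
Level of each of the 10 genes in CPM on TMM-scaled library sizes (log axis), with 1 point per library (8 wild type in blue, 8 knockout in red) and a black line at each group mean. The groups separate fully for Bgn, Aspn, Fmod, Kera and Chad and overlap for the other 5 genes.

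The promoters of the 5 members whose groups did not overlap show whether their starts share the letters of the hypoxia-inducible factor binding core, ACGTG or GCGTG. RefSeq promoter sequences (build GRCm38.p6) matched 8 of the 10 members, all but Dcn and Lum. The 250 bases before the start were searched in these 8 and are shown for the 5. Capitals mark ACGTG or GCGTG on either strand (CACGT in the printed strand where ACGTG lies on the other), and a match describes the letters only. The windows lie at chrX:73483351-73483600 for Bgn, chr13:49544193-49544442 for Aspn, chr11:94564797-94565046 for Chad, chr1:134037004-134037253 for Fmod and chr10:97606955-97607204 for Kera, all on the plus strand.
Bgn: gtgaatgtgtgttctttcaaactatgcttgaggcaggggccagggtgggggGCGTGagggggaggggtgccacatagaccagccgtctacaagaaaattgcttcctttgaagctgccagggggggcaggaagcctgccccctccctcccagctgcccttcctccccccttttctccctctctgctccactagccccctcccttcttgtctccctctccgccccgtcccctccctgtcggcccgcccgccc
Aspn: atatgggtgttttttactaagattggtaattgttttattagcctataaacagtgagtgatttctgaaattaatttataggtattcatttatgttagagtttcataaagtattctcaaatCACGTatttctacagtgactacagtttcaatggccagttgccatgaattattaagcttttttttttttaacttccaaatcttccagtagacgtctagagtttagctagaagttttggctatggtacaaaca
Chad: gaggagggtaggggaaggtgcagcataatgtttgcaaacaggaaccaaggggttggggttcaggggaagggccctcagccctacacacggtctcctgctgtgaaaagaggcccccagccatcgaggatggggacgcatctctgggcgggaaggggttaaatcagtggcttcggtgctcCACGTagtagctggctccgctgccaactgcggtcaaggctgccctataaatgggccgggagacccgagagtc
Fmod: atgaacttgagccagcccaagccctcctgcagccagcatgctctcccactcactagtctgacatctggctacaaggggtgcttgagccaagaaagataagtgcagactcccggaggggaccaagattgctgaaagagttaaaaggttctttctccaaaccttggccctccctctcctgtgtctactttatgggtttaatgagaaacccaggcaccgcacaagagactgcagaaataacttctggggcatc
Kera: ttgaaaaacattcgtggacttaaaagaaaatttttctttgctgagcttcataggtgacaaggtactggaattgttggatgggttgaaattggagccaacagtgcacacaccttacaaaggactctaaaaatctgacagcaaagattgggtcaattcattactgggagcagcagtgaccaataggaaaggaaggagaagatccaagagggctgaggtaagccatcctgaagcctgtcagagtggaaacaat
These letters were found in 3 of the 8 windows, those of Bgn (GCGTG, 199 bases before the start), Aspn (ACGTG, 131) and Chad (ACGTG, 72), and in 38.6% of 32851 windows of all genes. The share in the 8 windows is near that of all windows. Of the 3 genes with a match, Bgn and Aspn rose and Chad fell, and a relation of the letters to direction was not tested. The letters TATAAA on either strand were in 3 of the 8 windows, of Aspn, Ogn and Chad, against 12.4% of all windows, and in Chad they start 28 bases before the start of transcription. CANNTG, the E-box bound by helix-loop-helix factors such as Scx, was in 5 of the 8 windows and in 66.2% of all, and it overlaps ACGTG where the letters are CACGTG.

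Within class I, Bgn and Aspn rose while Dcn fell. Bgn (ENSMUSG00000031375, chromosome X) encodes biglycan, a core protein that can also act as a signal at Toll-like receptors once it is released from the matrix. It was measured in controls at 638 CPM in the lowest library, 814 at the median and 1021 in the highest, and in mutants at 1667, 1760 and 2089 CPM. Every mutant exceeded every control, and the spread within mutants was narrow, with a coefficient of variation of 7.53%. The log2 fold change was 1.11 (SE 0.0972, edgeR's quasi-likelihood test, adjusted p = 1.32e-08), a 2.17-fold difference.

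Aspn (ENSMUSG00000021388, chromosome 13) encodes asporin, which binds collagen and transforming growth factor β. Its lowest, median and highest controls had 112, 194 and 320 CPM, and the corresponding mutants 404, 661 and 1166 CPM. The highest control value was that of WT3, and the 3 highest mutant values were those of KO6, KO4 and KO5. The groups did not overlap. The log2 fold change was 1.96 (SE 0.266, edgeR's quasi-likelihood test, adjusted p = 1.08e-05), or 3.89-fold, and it lay between 1.84 and 2.10 when each library was left out in turn. In the annotation the exons of Aspn share a short stretch with those of Cenpp on the other strand, and the use of strand in counting is not given, so its counts are uncertain to that extent.

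Dcn (ENSMUSG00000019929, chromosome 10) encodes decorin, the main dermatan sulphate proteoglycan of tendon. It was at 5795, 6982 and 7911 CPM in the lowest, median and highest controls and at 3779, 5234 and 7182 CPM in the corresponding mutants. KO1, KO3, KO4, KO7 and KO8 were below every control, whereas KO2, KO5 and KO6 lay within the control range. The log2 fold change was -0.42 (SE 0.141, edgeR's quasi-likelihood test, adjusted p = 0.0185). The call ended with the muscle covariate (-0.29, adjusted p = 0.0918), without the 4 muscle-rich libraries (-0.34, adjusted p = 0.0820) and with total counts (-0.12, adjusted p = 0.471), and with the endothelial score as a covariate the value was 0.045 (adjusted p = 0.885).

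The class II genes all had values below 0 on the TMM scale, and 3 of the 5 passed the test. Fmod (ENSMUSG00000041559, chromosome 1) encodes fibromodulin, which binds type I collagen and directs lysyl oxidase to its cross-linking sites. It was the most abundant member by counts in every control, at 12160, 16439 and 18999 CPM in the lowest, median and highest controls. The mutants had 4933, 6825 and 7368 CPM, so that the highest of them stayed below the lowest control. The log2 fold change was -1.29 (SE 0.123, edgeR's quasi-likelihood test, adjusted p = 5.06e-08), a 2.44-fold lower level.

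Kera (ENSMUSG00000019932, chromosome 10) encodes keratocan, best known as a keratan sulphate proteoglycan of the cornea. Its controls had 799, 1333 and 1662 CPM as the lowest, median and highest value, and its mutants had 117, 272 and 520 CPM. WT3 was the lowest control and KO4 the lowest mutant, and the groups did not overlap. The log2 fold change was -2.18 (SE 0.271, edgeR's quasi-likelihood test, adjusted p = 3.54e-06), or 4.54-fold lower. Kera was also the member that varied most within mutants, with a coefficient of variation of 48.5% against 19.9% in controls.

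Lum (ENSMUSG00000036446, chromosome 10) encodes lumican, which shares a binding region on collagen with fibromodulin. It was at 233, 283 and 339 CPM in controls and at 149, 193 and 281 CPM in mutants (lowest, median, highest). KO6 was the mutant within the control range. The log2 fold change was -0.53 (SE 0.112, edgeR's quasi-likelihood test, adjusted p = 5.83e-04). The call ended with total counts (-0.23, adjusted p = 0.123) and with the endothelial score as a covariate (-0.49, adjusted p = 0.0587).

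Prelp and Omd did not pass the test. Prelp (ENSMUSG00000041577, chromosome 1), whose product links collagen to heparan sulphate, was at 438, 838 and 1466 CPM in controls and at 545, 811 and 998 CPM in mutants (lowest, median, highest). The control spread enclosed all mutants, and the log2 difference was -0.19 (SE 0.215, edgeR's quasi-likelihood test, adjusted p = 0.490). The exons of Prelp share 350 bases with the predicted gene Gm15851 on the other strand, so its counts are uncertain to that extent. Omd (ENSMUSG00000048368, chromosome 13), a bone-associated acidic member, was scarce, with counts between 18 and 86 per library. It was at 4.04, 5.15 and 8.30 CPM in controls and at 1.46, 3.50 and 6.89 CPM in mutants, with a log2 difference of -0.52 (SE 0.228, edgeR's quasi-likelihood test, adjusted p = 0.0646). The Omd groups overlapped, and the difference passed with DESeq2 (-0.54, adjusted p = 0.0379), without KO2 (-0.68, adjusted p = 0.0123) and without KO3 (-0.59, adjusted p = 0.0475). It was -0.16 with the endothelial covariate (adjusted p = 0.773) and -0.23 with total counts (adjusted p = 0.399).

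The members of the other classes differed from each other. Chad (ENSMUSG00000039084, chromosome 11) encodes chondroadherin, a leucine-rich protein without a glycosaminoglycan chain that binds collagen and integrins. It was at 1198, 1599 and 1997 CPM in the lowest, median and highest controls and at 280, 349 and 599 CPM in the corresponding mutants. The groups did not overlap, and the log2 fold change was -2.02 (SE 0.162, edgeR's quasi-likelihood test, adjusted p = 4.21e-09), or 4.05-fold lower. Ogn (ENSMUSG00000021390, chromosome 13), which encodes mimecan, was at 68.8, 118 and 200 CPM in controls and at 93.1, 156 and 256 CPM in mutants. Its groups overlapped and its log2 difference was 0.40 (SE 0.208, edgeR's quasi-likelihood test, adjusted p = 0.128). It passed with total counts (0.69, adjusted p = 0.0118) and without WT5 (0.53, adjusted p = 0.0309), the highest control.

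Ratios between members within a library do not depend on how libraries are scaled. They were compared for 5 pairs, with an exact permutation test that runs through 12870 assignments of 16 libraries to groups of 8 (two-sided, adjusted over the 5 pairs). The pairs were set by structural class or by neighbouring genes, and the members were chosen with earlier results known. Other pairs of genes were not compared, so no share stands beside the number of pairs that separate. The count ratio of Bgn to Dcn differed by 1.59 on the log2 scale, from -3.11 ± 0.163 in controls to -1.53 ± 0.372 in mutants (SD, n = 8; exact permutation test, p = 0.000155, adjusted 0.000194). That p is the smallest these libraries allow, and all 8 mutants were above all 8 controls. Thus Bgn was higher relative to Dcn in mutants, although Dcn still had more counts than Bgn. Both carry chondroitin or dermatan sulphate. The ratio of Aspn to Dcn differed by 2.41, also without overlap and with the same p-values.

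Ratios within class II differed as well. The log2 ratio of Kera to Prelp was 0.65 ± 0.649 in controls and -1.56 ± 0.983 in mutants (SD, n = 8), a difference of -2.21 (exact permutation test, p = 0.000155, adjusted 0.000194). Its groups came close, at -0.18 in the lowest control and -0.21 in the highest mutant. The log2 ratio of Fmod to Lum was 5.78 ± 0.314 in controls and 5.05 ± 0.409 in mutants (SD, n = 8). This difference of -0.73 passed the exact permutation test (p = 0.000932, adjusted 0.000932) although the groups overlapped, so Fmod fell more than its close structural relative Lum. The log2 ratio of the neighbouring genes Omd and Ogn differed by -1.01, without overlap (exact permutation test, p = 0.000155, adjusted 0.000194), while neither gene passed the test on its own.

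**Figure D2:**
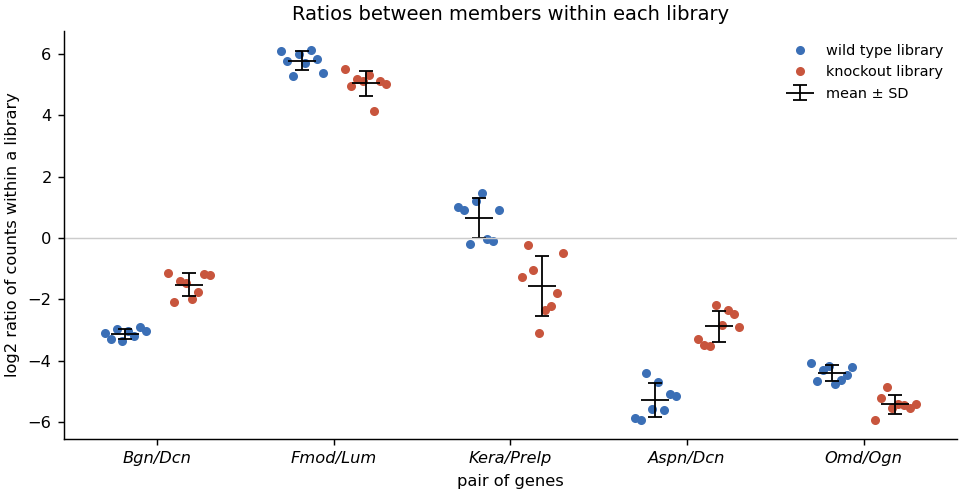
Log2 ratio of counts of 2 members within each library for the 5 pairs, with 1 point per library and black bars for the mean ± SD of 8 wild type (blue) or 8 knockout (red) libraries. The groups separate for every pair shown except Fmod/Lum, and the difference is widest for Aspn/Dcn, at 2.41. Other pairs were not compared.

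The make-up of the family is given as a description. The 10 genes together took 2.52% ± 0.224 of all counts in controls and 1.79% ± 0.210 in mutants (SD, n = 8), with ranges of 2.08% to 2.74% and 1.53% to 2.08% that met at WT5 and KO2. Among the family's own counts, Fmod held 56.3% ± 3.69 in controls and 40.7% ± 4.66 in mutants, and Bgn 2.95% ± 0.547 and 11.1% ± 1.27. The share of Aspn was 0.710% ± 0.342 in controls and 4.62% ± 1.74 in mutants. Kera held 4.64% ± 0.743 and 1.80% ± 0.833, and Chad 5.65% ± 0.737 and 2.43% ± 0.583. None of these 5 shares overlapped between the groups. The share of Dcn was 25.2% ± 2.53 in controls and 32.2% ± 5.01 in mutants, with overlap, although its CPM was lower in mutants. Class I genes held 28.9% ± 3.31 of the family's counts in controls and 48.0% ± 4.98 in mutants, and class II genes held 65.0% ± 3.42 and 48.6% ± 4.93. These are shares of counts and depend on the length of each gene. Scaled by exon length, Fmod held 58.7% in controls and 47.1% in mutants, Dcn 14.9% and 21.2%, and Bgn 1.67% and 7.00%. On that scale Aspn held 1.05% and 7.54%, Kera 7.02% and 3.02%, and Chad 11.6% and 5.53%. Class shares were not computed per length.

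**Figure D3:**
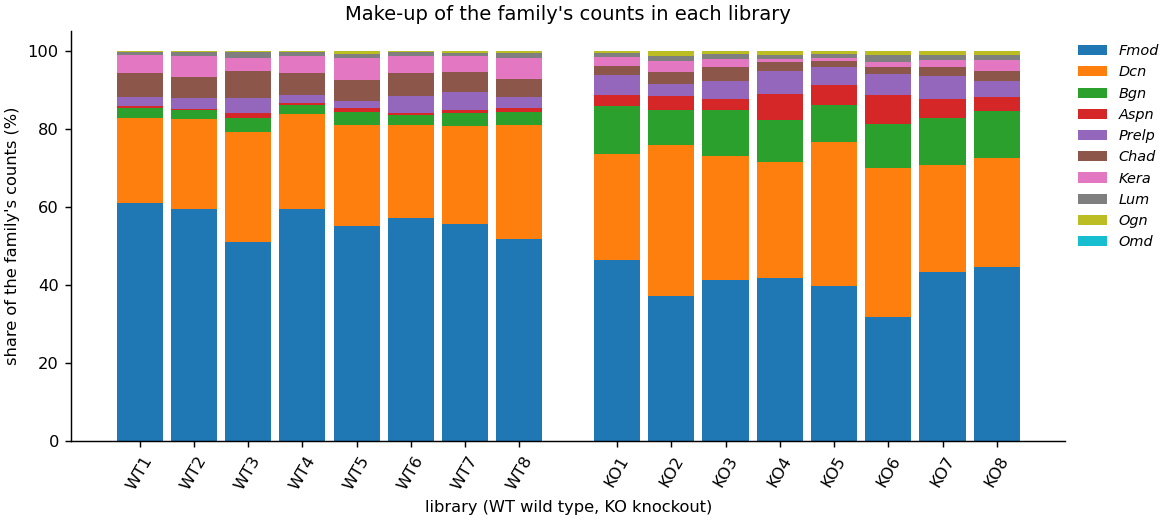
Share of each gene in the family's counts in every library, as stacked bars that start at 0 and add to the whole family, with 8 wild type libraries on the left and 8 knockout libraries on the right. Fmod is the largest share in every wild type library, and Bgn and Aspn take visibly more of the bar in every knockout library.

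Levels can be compared between genes only per length, here as RPKM, the CPM per kilobase of exon. With the union of annotated exons as length, Fmod led in both groups, at 4812 ± 845 RPKM in controls and 1973 ± 244 RPKM in mutants (SD, n = 8). Dcn followed, at 1207 ± 128 and 901 ± 233 RPKM. In controls Chad (945 ± 163) and Kera (573 ± 114) came next and Bgn (135 ± 21.8) and Aspn (81.2 ± 30.2) stood sixth and eighth. In mutants Aspn (316 ± 123) and Bgn (291 ± 22.0) came after Dcn, ahead of Chad (233 ± 70.4). Aspn and Bgn did not differ beyond their spread there, with Aspn above Bgn in 4 of 8 libraries, and neither did Chad and Prelp (214 ± 39.2 RPKM). Omd was last in every library.

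The order at the top depends on the length used. Dcn has annotated exons of 5838 bases in all but a principal transcript of 1758 bases, and Bgn 6099 and 2419. With principal transcripts, chosen as an alternative after the values were seen, Dcn was above Fmod in 8 of 8 mutants (2991 ± 773 against 2090 ± 258 RPKM, n = 8). In controls Fmod remained above Dcn in 8 of 8 libraries (5099 ± 895 against 4008 ± 426 RPKM, n = 8). Bgn came after Dcn and Fmod in mutants on that scale, at 735 ± 55.4 RPKM, above Aspn in every library.

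Type I collagen, the fibril these proteins bind, was lower in mutants as well. Col1a1 fell by 0.95 and Col1a2 by 1.44 on the log2 scale (SE 0.225 and 0.199, edgeR's quasi-likelihood test, adjusted p = 0.00170 and 6.01e-06). Family counts per 100 counts of Col1a1 and Col1a2 were 11.7 ± 4.02 in controls and 14.5 ± 4.67 in mutants (SD, n = 8), which overlapped, and WT3 reached 21.3. The difference of 2.83 was 4.20 without WT3 and 1.52 without KO6. For Bgn alone the value per 100 collagen counts was 0.356 ± 0.183 and 1.59 ± 0.481, without overlap. For Fmod it was 6.46 ± 1.81 and 5.71 ± 1.15, with overlap.

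Libraries of the same genotype also differed in how the members related to collagen. These correlations use log2 CPM as deviations from the genotype mean over 16 libraries, and are a description, since the cell mixture and depth of a library touch all of its genes at once. Fmod followed Col1a1 (Pearson r 0.79, Spearman rho 0.66), whereas Aspn ran against it (r -0.83, rho -0.87). Without the 2 libraries farthest from the median, r was 0.59 for Fmod and -0.79 for Aspn. Within mutants alone (n = 8) r was 0.72 for Fmod but rho 0.17, and it was 0.26 without the 2 farthest libraries, so this relation rests on them. For Aspn r was -0.81 in mutants and -0.86 in controls (n = 8 each). Aspn also ran against Kera (r -0.72, rho -0.73 over 16 libraries): KO4, with the least Kera, had the next to highest Aspn. Among controls this relation rests on 2 libraries, with r -0.70 for all 8 and -0.11 without the 2 farthest. Among the 45 pairs of members, r lay between -0.72 and 0.84, and the highest was that of the neighbours Omd and Ogn. Within mutants it rests on 2 libraries, since it was 0.92 with all 8 and 0.05 without the 2 farthest.

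**Figure D4:**
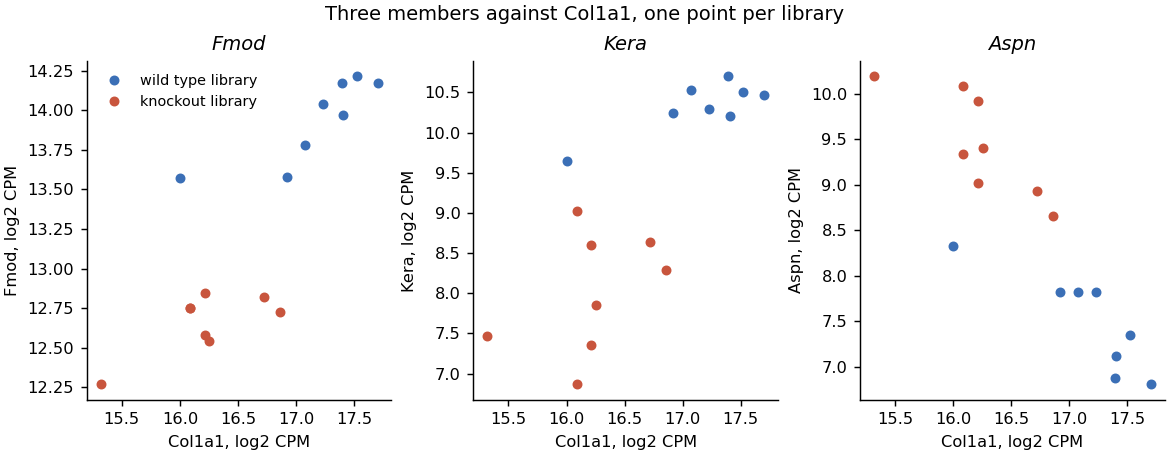
Log2 CPM of Fmod, Kera and Aspn against log2 CPM of Col1a1, with 1 point per library (8 wild type in blue, 8 knockout in red). Over deviations from the genotype means the Pearson r is 0.79 for Fmod, 0.50 for Kera and -0.83 for Aspn, and the leftmost wild type point is WT3. For Kera r is 0.27 without the 2 farthest libraries, and within the wild type it goes from 0.83 to 0.03 without them.

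Many members lie next to each other in the genome. On chromosome 10 the order is Dcn, Lum, Kera and Epyc, and all 4 passed the test as lower, with log2 fold changes of -0.42, -0.53, -2.18 and -0.82, beside 22.7% of all tested genes called lower. The call of Dcn was lost in 4 alternatives and that of Lum in 2, as given above. The counts of Epyc are uncertain, since its exons share a long stretch with a gene on the other strand. On chromosome 13 Ecm2, Aspn, Omd and Ogn follow each other, and of these Aspn alone passed the test, as higher. On chromosome 1 Prelp lies next to Fmod, and Fmod alone passed.

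Of 8 further small leucine-rich proteoglycans and relatives, 7 were tested, 1 was higher and 3 were lower, with a median log2 fold change of -0.33 that was -0.039 with total counts. That is 57.1% of those tested, beside 48.3% of all genes. Podn (podocan, class V) rose from 6.72 ± 2.50 to 31.8 ± 7.43 CPM (SD, n = 8), a log2 fold change of 2.24 (SE 0.201, edgeR's quasi-likelihood test, adjusted p = 4.91e-08). Its groups did not overlap. Epyc (epiphycan, -0.82, adjusted p = 6.66e-04), Chadl (-0.59, adjusted p = 7.77e-05) and Nyx (nyctalopin, -0.87, adjusted p = 0.00883) fell. The exons of Chadl share a long stretch with those of L3mbtl2 on the other strand, and those of Epyc with the predicted gene Gm10754. The counts of both are therefore uncertain. Ecm2 (-0.33), Tsku (0.25) and Podnl1 (0.41) did not pass, with adjusted p-values of 0.115, 0.154 and 0.140. Optc was not tested, with 117 counts over all libraries.

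Further lists hold genes that build, bind or cut these proteins; 40.0% to 81.8% of their tested genes passed the test, beside the same 48.3% of all genes, and their medians stand beside 0.02 for all genes. The genes that build the glycosaminoglycan chains changed in both directions. Of 23 genes for the linker and for chondroitin or dermatan sulphate, 22 were tested, 8 were higher and 7 lower, with a median of 0.06 that was 0.27 with the endothelial covariate and 0.36 with total counts. Xylt1, which adds the xylose that starts a chain on the core, rose from 43.2 ± 6.01 to 78.4 ± 17.0 CPM (SD, n = 8; log2 fold change 0.86, edgeR's quasi-likelihood test, adjusted p = 8.27e-06). The sulphotransferases Chst11 (1.14) and Chst15 (0.83) rose, whereas Ust (-0.74), Chst12 (-0.61) and Chst7 (-0.55) fell. The exons of Chst15 share a long stretch with those of the predicted gene Gm10584 on the other strand, so its counts are uncertain. Dse, the epimerase that turns chondroitin into dermatan sulphate, fell by 0.54 without overlap, and it was named after its values were seen.

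Of 11 keratan sulphate genes, 2 were higher and 5 lower, with a median of -0.32 that was -0.62 with the endothelial covariate and -0.022 with total counts. Chst2, a sulphotransferase that acts on N-acetylglucosamine, fell from 16.4 ± 5.04 to 4.56 ± 2.36 CPM (SD, n = 8; log2 fold change -1.85, edgeR's quasi-likelihood test, adjusted p = 4.42e-05). Chst5, of the same enzyme family, rose from 2.90 ± 1.18 to 9.06 ± 4.54 CPM (1.64, adjusted p = 3.19e-04). Fut8 (-0.76) and St3gal3 (-0.52) fell and B4galt1 (0.62) rose.

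Among 15 genes that supply sulphate, sugars and tyrosine sulphation, 4 were higher and 2 lower, with a median of -0.05 that was 0.25 with total counts and 0.050 with the endothelial covariate. Ugdh, which makes the UDP-glucuronate used in chondroitin chains, rose from 105 ± 16.6 to 256 ± 48.3 CPM (SD, n = 8; log2 fold change 1.28, edgeR's quasi-likelihood test, adjusted p = 2.43e-08), and shares a short stretch of exon with the predicted gene Gm43552. Tpst1, which sulphates tyrosines such as those of fibromodulin, fell from 56.4 ± 9.20 to 22.4 ± 3.35 CPM (-1.33, adjusted p = 4.09e-09). Slc35b2 (-0.46) fell, and Papss1 (0.29) and Ugp2 (0.27) rose.

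Of 18 fibril partners, 5 were higher and 8 lower, with a median of -0.33 that was -0.018 with total counts. Col3a1 (1.89), Fn1 (1.57) and Col5a2 (1.10) rose without overlap, and Col11a2 fell by 3.03, from 1201 ± 316 to 147 ± 87.3 CPM (SD, n = 8; edgeR's quasi-likelihood test, adjusted p = 4.57e-06). Of 19 receptors and growth factors that bind these proteins, 3 were higher and 11 lower, with a median of -0.35 that was -0.035 with total counts. Bmp2 (-1.67), Ccn4 (-1.32) and Met (-0.97), which encodes a receptor that decorin binds, fell, and Itgb3 (0.87), Igf1r (0.74) and Itgav (0.22) rose. The values for the Toll-like receptors Tlr2 (-0.14) and Tlr4 (-0.11), which biglycan binds, did not pass. Tlr2 and Tlr4 were named after their values were seen.

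Of 14 proteases and cofactors reported to process or cut the cores, 11 were tested, 4 were higher and 5 lower, with a median of 0.17 that was -0.18 without the 4 muscle-rich libraries, -0.037 with the muscle covariate and 0.48 with total counts. Bmp1, which removes the propeptide of biglycan and decorin, fell from 408 ± 66.2 to 275 ± 33.9 CPM (SD, n = 8; log2 fold change -0.57, edgeR's quasi-likelihood test, adjusted p = 1.56e-04), and its relative Tll1 fell by 1.01. Mmp14 rose from 112 ± 12.4 to 233 ± 41.0 CPM (1.05, adjusted p = 5.70e-08). Mmp3 (1.35) also rose, from 5.98 ± 1.44 to 15.2 ± 5.18 CPM (SD, n = 8), and Htra1 fell by 0.52.

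**Figure D5:**
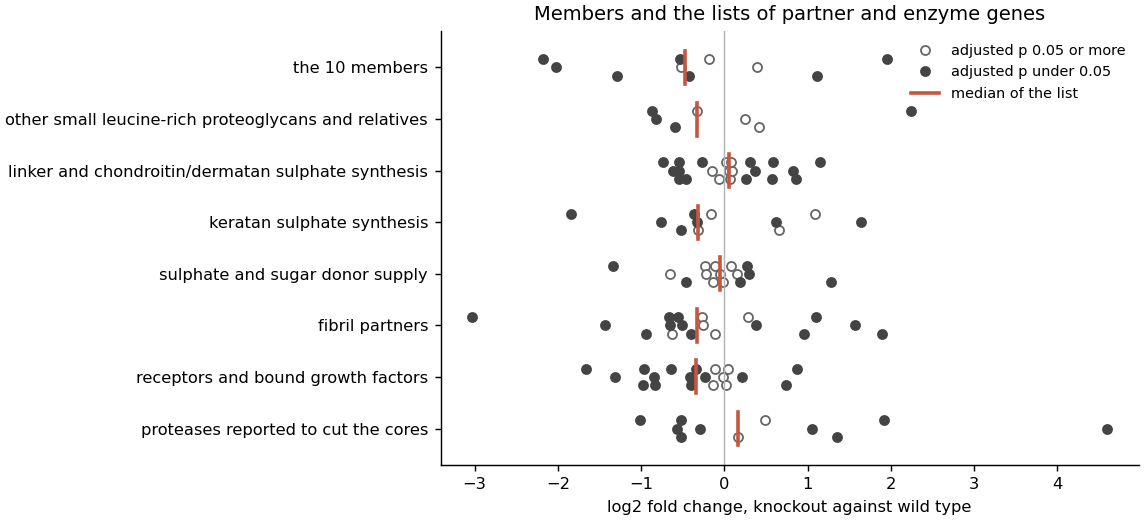
Log2 fold change (knockout against wild type) of the 10 members and of the tested genes of each list, with filled points at an adjusted p under 0.05, open points at 0.05 or more and a red line at each median. Each list holds genes on both sides of 0, and its median lies between -0.47 for the members and 0.17 for the proteases.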

How the data were processed

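RNA of mouse tail tendon fascicles was sequenced in 8 wild type and 8 knockout libraries. The authors deposited whole-number counts per Ensembl gene, per the file headers as matched counts. Per the submitters' processing notes, kallisto, featureCounts and the build GRCm39 were used. Versions, annotation and strand are not given in the sources used here. Symbols were matched for 25614 of 25719 identifiers. Gene models and lengths came from GENCODE M21 (GRCm38), so genes are placed by chromosome only. In that annotation the exons of Fn1, Itgav, Col3a1, Ugp2 and Fut8 also share stretches with other genes, so their counts are uncertain to that extent. Counts were fitted with edgeR 4.0.16 in R 4.3.3 (TMM, default expression filter, robust quasi-likelihood F test, genotype as the only term, two-sided), adjusted over 14803 tested genes, with a threshold of 0.05. Log2 CPM used a prior count of 2, and pair ratios 1 added count. The fit was also run on simulated data in which far fewer genes changed, in both directions, with the same dispersion for every gene. In these data 48.3% of tested genes were called, so that run does not test the scaling used here. Groups and replicate numbers came from the titles. No 2 libraries were repeats (lowest chi-square per degree of freedom 6.56).

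The members and lists were chosen with earlier results of these data known. The rule named all members, Vhl, Col1a1, Col1a2 and Col3a1, up to 3 called genes in each direction per list with a mean log2 CPM of at least 1, all other family genes, and per member the 2 genes of mean log2 CPM of at least 4 most correlated with it. Of the proteases that the rule names, 1 is not reported here. Floors cover counting error only; at a floor of 3 counts no member was undetected. Protein features were not computed, since no protein sequences were used here. The promoter search covered 250 bases before each start. Alternatives were DESeq2 1.42.0 (size factors and Wald test), total counts, TMM without the 20 most abundant genes, no filter, a mean count of at least 10, limma-voom 3.58.1 with quality weights, non-robust dispersions, a replicate block, muscle and endothelial scores as covariates, each library left out, other added counts (0.5 and 5) and the collagen-free total. Shares within the family were also taken from values scaled by exon length. Leaving out the 4 muscle-rich libraries and using principal transcript lengths were chosen after seeing the data.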

Additional observations from a re-analysis of the deposited data

Results flagged for a closer look

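In 34 checks of 8 libraries each (10 member levels, 5 pair ratios, the family share and the family to collagen ratio, in each genotype), 4 had a library far from the others, where chance gives about 1 in 20, or 1.70. Distance was judged by the gap to the next library as a part of the range. The checks share genes and libraries and are not independent, so the count of 4 is not read as an excess. For Bgn, KO3 was the highest knockout library, at a log2 CPM of 11.03 against 10.80 in the next. The log2 ratio of Fmod to Lum was lowest in KO6, at 4.13 against 4.94 in the next knockout library. For Kera, WT3 was the lowest wild type library, at a log2 CPM of 9.64 against 10.21 in the next. Family counts per 100 type I collagen counts were highest in WT3, at 21.3 against 11.6 in the next wild type library.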

How the results depend on the processing

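Bgn (1.07 to 1.41), Aspn (1.65 to 2.24), Fmod (-1.34 to -0.96), Kera (-2.36 to -1.67) and Chad (-2.13 to -1.47) kept their direction and their call in all 28 alternatives, and so did the 5 pair differences in 20 each. The number of called genes was 7151, and 4476 with the endothelial covariate. Dcn (-0.42) had 0.045 with that covariate, -0.29 with the muscle covariate, -0.12 with total counts and -0.34 without the 4 muscle-rich libraries, none of them called. Lum (-0.53) lost its call with the endothelial covariate (-0.49) and total counts (-0.23). Omd passed with DESeq2's Wald test (-0.54) and ranged from -0.68 to -0.40 with each library left out. Ogn passed with total counts (0.69) and ranged from 0.27 to 0.53. With each library left out, Dcn (-0.50 to -0.36), Lum (-0.62 to -0.48) and Prelp (-0.29 to -0.05) kept their side of the threshold. List medians with the endothelial covariate were 0.27 for chondroitin and dermatan sulphate, -0.62 for keratan sulphate and 0.050 for donor supply. With total counts they were -0.039 for the other small leucine-rich proteoglycans, 0.36 for chondroitin and dermatan sulphate, -0.022 for keratan sulphate, 0.25 for donor supply, -0.018 for fibril partners, -0.035 for receptors and growth factors and 0.48 for proteases. The protease median was -0.037 with the muscle covariate, 0.33 without a filter and -0.18 without the muscle-rich libraries. The difference in family share of counts was -0.73 percentage points, and -1.23 with collagen counts left out of the total. The cause of these changes was not tested.

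Libraries with the same replicate number did not deviate together: the correlation ran from -0.40 to 0.39, was over 0.1 in 3 of 8 pairs, and 1 of 8 libraries correlated best with its own number. The replicate block called 7010 genes and changed no member's call. Omd, with 18 to 86 counts per library, is the member whose precision depth limits most.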

Other observations

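Genes that varied most like each member across libraries were sought among 7966 genes, as the Pearson correlation of log2 CPM deviations from the genotype means over 16 libraries, where the cell mixture and depth of a library touch all of its genes. The closest to Kera were Cpxm2 (r 0.90) and Capn6 (0.88), with log2 fold changes of -1.88 and -1.64 of their own. The closest to Chad were Cilp2 (0.89) and Ctdspl (0.87), which also fell, by 2.96 and 0.88. The closest to Aspn were Medag (0.94), which rose by 0.71, and Tmod2 (0.93), which fell by 0.58. Fmod was followed by Glg1 (0.93, log2 fold change 0.26) and Adgra3 (0.89, -0.45), so likeness within a genotype did not always go with the same direction between genotypes. The closest to Bgn were Vsir (0.90) and Txnip (0.87), to Dcn Colec12 and Rora (0.92 each), and to Lum Ctso and Cdadc1 (0.81 each). Prelp was followed by Zbtb5 (0.89) and Mcm7 (0.88), Omd by Rps28 (0.85) and Paip1 (0.84), and Ogn by Ube2b (0.87) and Rps4x (0.82). Each gene was among the 2 highest of 7966 for its member, so its r is high in part by selection. Without the 2 libraries farthest from the median, r ran from 0.58 (Omd and Paip1) to 0.92 (Aspn and Medag), and was 0.63 for Lum and Ctso.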
